A study of Mus musculus with 8 samples.

Results

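The 10 genes described here carry the exchange of salt and bicarbonate and the passage of water across the lining of the colon: the exchangers Slc26a3, Slc9a3 and Slc9a2, the scaffold Pdzk1, the carbonic anhydrases Car1, Car2 and Car4, the bicarbonate cotransporter Slc4a4 and the water channels Aqp8 and Aqp4. They were picked by symbol from the 52143 rows of the table, and where a symbol was repeated the row with the highest mean was taken. Every one of the 10 had a row. RNA was sequenced from 8 distal colon samples of female mice, 4 labeled control and 4 labeled Siglec-XII. The design text speaks of 3 mice per condition, so it is not certain that each sample is a separate animal. Controls were littermates with the Villin1-Cre-ERT transgene alone. Siglec-XII mice (SIGLEC12-Villin1-Cre-ERT) carried in addition 1 floxed copy of human SIGLEC12, knocked into ROSA26 behind a CAG promoter and an EGFP stop cassette, so that Cre activity in cells that use the Villin1 promoter, the intestinal epithelium, turns the receptor on. Both groups were 8 weeks old at the first tamoxifen dose, received it intraperitoneally for 5 days, and were sampled 7 days after the last dose. The comparison asks whether these absorption genes differ in colons whose epithelium was made to express Siglec-XII. The transgene had no row in the table and the labels were not checked against it.

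In the distal colon, sodium and chloride are taken up together when an apical sodium-hydrogen exchanger (Slc9a3 or Slc9a2) works side by side with the chloride-bicarbonate exchanger Slc26a3, so that no net charge moves. Carbonic anhydrases supply the protons and bicarbonate that both exchangers trade, a basolateral pump and cotransporters finish the crossing, and water follows through the cells and their junctions. Loss of SLC26A3 in people causes congenital chloride diarrhea.

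The DNA just before the start site is shown for Car4, Aqp8 and Slc26a3, whose 3 lowest values fell in the same samples, and for the much lower Slc9a3. Each run is the 250 bases before the RefSeq start on GRCm38.p6, written 5′ to 3′ in the direction of transcription, which is the plus strand for all 4. Capitals mark the motif letters that were found.
Car4, chr11:84957504-84957753: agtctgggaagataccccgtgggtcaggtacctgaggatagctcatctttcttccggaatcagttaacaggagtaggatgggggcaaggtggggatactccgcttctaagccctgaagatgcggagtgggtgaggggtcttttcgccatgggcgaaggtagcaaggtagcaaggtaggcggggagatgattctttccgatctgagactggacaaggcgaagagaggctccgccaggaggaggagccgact
Aqp8, chr7:123462044-123462293: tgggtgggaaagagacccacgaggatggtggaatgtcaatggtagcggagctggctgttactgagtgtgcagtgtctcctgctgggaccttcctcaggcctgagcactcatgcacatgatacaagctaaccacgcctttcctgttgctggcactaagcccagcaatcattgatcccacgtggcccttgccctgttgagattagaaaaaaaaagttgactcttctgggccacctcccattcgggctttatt
Slc26a3, chr12:31437969-31438218: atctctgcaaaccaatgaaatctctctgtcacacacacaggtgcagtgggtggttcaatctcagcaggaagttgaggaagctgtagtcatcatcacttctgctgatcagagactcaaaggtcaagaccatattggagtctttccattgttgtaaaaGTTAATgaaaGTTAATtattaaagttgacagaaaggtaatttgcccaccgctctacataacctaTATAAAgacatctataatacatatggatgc
Slc9a3, chr13:74121163-74121412: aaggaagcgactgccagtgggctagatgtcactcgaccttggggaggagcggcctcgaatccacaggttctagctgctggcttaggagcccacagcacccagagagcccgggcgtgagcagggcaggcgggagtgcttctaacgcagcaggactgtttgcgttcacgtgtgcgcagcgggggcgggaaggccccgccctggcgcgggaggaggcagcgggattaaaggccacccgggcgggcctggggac
The windows differed in base composition, with a GC content of 38.8% for Slc26a3, 52.4% for Aqp8, 56.4% for Car4 and 67.6% for Slc9a3. Both strands were searched for TATAAA as a TATA box core, CATAAA as a CDX core, GTTAAT as an HNF1 core, AGATAA as a GATA factor site and CAAAGTNCA as an HNF4 core. The Slc26a3 window held GTTAAT at 94 and at 84 bases before the start and TATAAA at 30 bases before it, with no overlap between these matches. None of the 5 motifs was found in the other 3 windows, which says only that these letters are not there. Among 32851 RefSeq promoter windows, TATAAA occurred in 12.4%, CATAAA in 10.8%, GTTAAT in 6.43%, AGATAA in 9.99% and CAAAGTNCA in 1.19%. Promoter entries were matched for 6 of the 10 genes, all but Slc9a2, Car1, Car2 and Aqp4.

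Levels are given in TPM, a length-corrected share of the transcripts of a sample, so that genes can be compared with each other. The 10 genes together made up 0.523% to 0.688% of all TPM. In controls their means ran from 2527 TPM for Car1 to 0.266 TPM for Pdzk1. Car1 came first, then Car4, Car2, Aqp8 and Slc26a3, all at 347 TPM or more in every sample, followed after an 8.38-fold step by Slc9a2, and then by Slc4a4, Aqp4, Slc9a3 and Pdzk1. Neighbors in this order did not overlap among the controls, except for Car4 and Car2, Aqp8 and Slc26a3, and Slc4a4 and Aqp4. Aqp8 was nevertheless above Slc26a3 within each of the 8 samples, whereas Car4 was above Car2 in 6 of 8 and Slc4a4 above Aqp4 in 4 of 8.

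**Figure D1:**
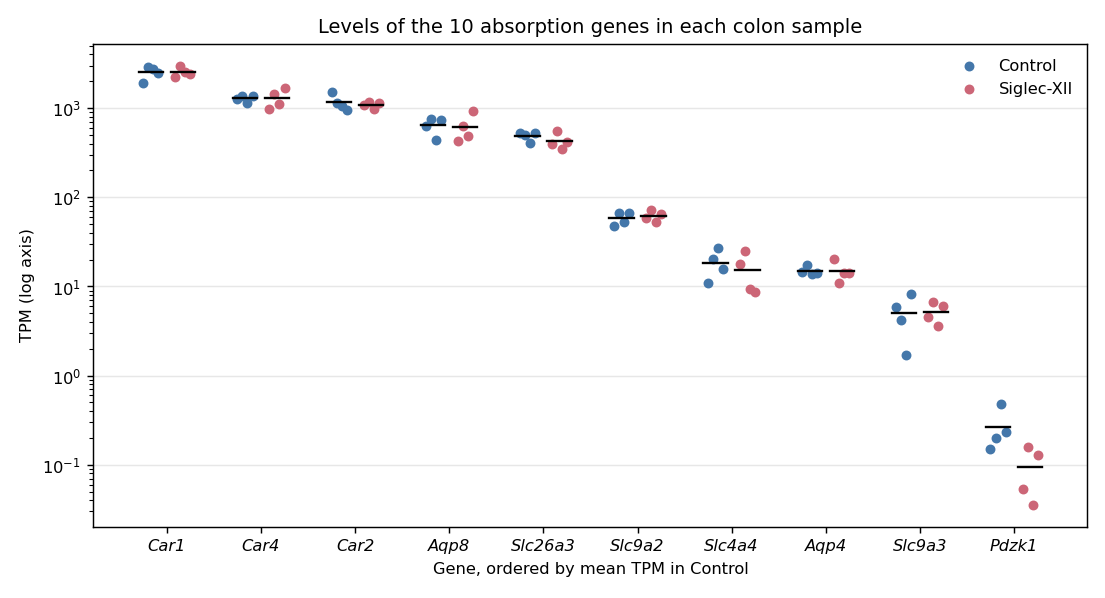
TPM of the 10 genes (log axis) in 4 control (blue) and 4 Siglec-XII (red) colon samples, 1 point per sample, with a black line at each group mean. Genes are ordered by their control mean, and the points of both groups overlap for every gene.

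Slc26a3 (ENSMUSG00000001225, chr12:31390871-31473917 on GRCm38, plus strand), the apical chloride-bicarbonate exchanger, was the most abundant transporter of the set. It stood at 523, 495, 411 and 532 TPM in controls 1 to 4 and at 400, 553, 347 and 418 TPM in Siglec-XII samples 1 to 4. Siglec-XII sample 2 held the highest value of all and the other 3 Siglec-XII samples sat near or below the lowest control. The difference on the log2(TPM + 1) scale was -0.20 ± 0.149 (SE, n = 4 and 4), with a 95% interval from -0.54 to 0.13 and a limma adjusted p of 0.552. Single samples moved this value both ways. Without Siglec-XII sample 2 it was -0.33, with an unadjusted limma P of 0.0257 and an adjusted p of 0.400, without sample 3 it was -0.11 (adjusted p = 0.860), and without samples 3 and 4 it was -0.053 (adjusted p = 0.991).

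Slc9a3 (ENSMUSG00000036123, chr13:74121457-74169442), the sodium-hydrogen exchanger usually credited with most electroneutral sodium uptake in the gut, was low in these colons. Controls had 5.94, 4.21, 1.69 and 8.34 TPM, and Siglec-XII samples had 4.50, 6.65, 3.61 and 6.001 TPM. The control samples held both the lowest and the highest value, a 4.93-fold spread that enclosed every Siglec-XII sample. The log2 difference was 0.15 ± 0.357 (adjusted p = 0.849, limma) and became -0.20 without control sample 3.

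Slc9a2 (ENSMUSG00000026062, chr1:40680574-40769273), a second apical sodium-hydrogen exchanger, was the more abundant partner, at 48.0, 66.4, 52.9 and 66.6 TPM in controls and 58.03, 72.3, 53.5 and 65.6 TPM in Siglec-XII samples. The ranges overlapped, with a log2 difference of 0.10 ± 0.142 (adjusted p = 0.746, limma). Slc9a2 held 50.7% to 65.5% of the summed TPM of 9 sodium-hydrogen exchanger genes in the 8 samples. Slc26a3 in turn held 65.9% to 82.3% of that of 6 Slc26 genes, and the sulfate transporter Slc26a2 was next.

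Pdzk1 (ENSMUSG00000038298, chr3:96829284-96870926) encodes a scaffold with PDZ domains that binds the tails of Slc9a3 and Slc26a3 at the brush border. It was near the bottom of the measured range, at 0.150, 0.201, 0.481 and 0.232 TPM in controls and 0.0530, 0.160, 0.0356 and 0.130 TPM in Siglec-XII samples. Of the Siglec-XII samples, sample 2 alone reached into the control range. Pdzk1 stayed under 1 TPM in every sample and was the 1 gene of the 10 left out of the test across genes. Its log2(TPM + 1) difference was -0.20 with an exact two-sided permutation p of 0.0571, and with no filter on low values limma gave an unadjusted P of 0.0392 and an adjusted p of 0.682. Of the 31-base stretches of its transcripts, 35% also occur on the opposite strand in transcripts of Gpr89, which had 20.04 to 28.9 TPM, and the strand setting used for the quantification is not given in the sources used here, so the level of Pdzk1 is uncertain.

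The 3 carbonic anhydrases were the most abundant genes of the set and together held 98.1% to 98.9% of the summed TPM of 16 carbonic anhydrase genes. Car1 (ENSMUSG00000027556, chr3:14766216-14808368, minus strand), a cytosolic enzyme, had 1931, 2926, 2779 and 2471 TPM in controls and 2241, 2973, 2568 and 2427 TPM in Siglec-XII samples. Control 1 was the lowest of the 8 samples and Siglec-XII 2 the highest, with a log2 difference of 0.02 ± 0.147 (adjusted p = 0.940, limma). Of its 31-base stretches, 20.1% are shared with Gm5843, which had 0.965 to 2.95 TPM.

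Car2 (ENSMUSG00000027562, chr3:14886273-14900770), the fast cytosolic isoform, also lies on chromosome 3. It had 1520, 1128, 1060 and 951 TPM in controls and 1075, 1169, 974 and 1140 TPM in Siglec-XII samples. Here control 1 was the highest sample and control 4 the lowest, so the controls enclosed all Siglec-XII values. The log2 difference was -0.08 ± 0.143 (adjusted p = 0.795, limma).

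Car4 (ENSMUSG00000000805, chr11:84957786-84966044), which is held by a lipid anchor on the outer face of the apical membrane, had 1252, 1368, 1143 and 1373 TPM in controls and 988, 1436, 1100 and 1697 TPM in Siglec-XII samples. Siglec-XII samples held the lowest and the highest value, on either side of the controls. The log2 difference was -0.0051 ± 0.167, the smallest in size of the 9 tested genes, with an adjusted p of 0.988 (limma).

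Slc4a4 (ENSMUSG00000060961, chr5:88886818-89239653), the sodium-bicarbonate cotransporter of the basolateral side, had the largest difference of the 9 tested genes and the highest pooled within-group SD, 0.613 on the log2 scale against 0.591 for Slc9a3, whose values covered a wider range. Controls had 10.9, 20.5, 27.0 and 15.8 TPM and Siglec-XII samples had 17.9, 24.8, 9.40 and 8.61 TPM. Siglec-XII samples 3 and 4 lay below every control, while samples 1 and 2 lay inside the control range. The log2 difference was -0.32 ± 0.364 (adjusted p = 0.671, limma) and turned to 0.25 without Siglec-XII samples 3 and 4.

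Aqp8 (ENSMUSG00000030762, chr7:123462291-123468004), a water channel of the surface colonocyte, had 632, 746, 445 and 745 TPM in controls and 428, 637, 483 and 939 TPM in Siglec-XII samples. The Siglec-XII samples again held both extremes, 2.19-fold apart, and the log2 difference was -0.08 ± 0.258 (adjusted p = 0.880, limma). Aqp8 held 77.9% to 94.97% of the summed TPM of 12 aquaporin genes. Aqp4 (ENSMUSG00000024411, minus strand), a basolateral water channel, had 14.6, 17.4, 13.7 and 14.1 TPM in controls and 20.5, 10.98, 14.1 and 14.3 TPM in Siglec-XII samples. Siglec-XII 1 was highest and Siglec-XII 2 lowest, with a log2 difference of -0.02 ± 0.179 (adjusted p = 0.957, limma).

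**Figure D2:**
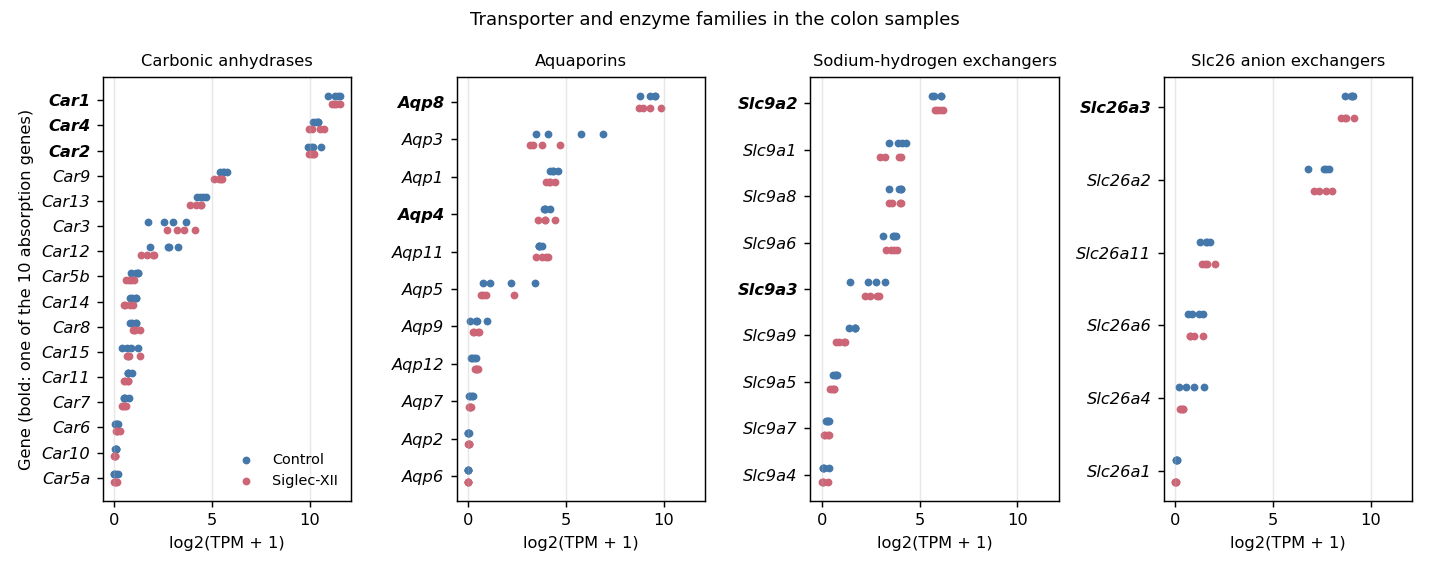
log2(TPM + 1) of the 16 carbonic anhydrases, 11 of the 12 aquaporins (Mip, listed at 0 in every sample, is not drawn), 9 sodium-hydrogen exchangers and 6 Slc26 exchangers, 1 point per sample, control in blue and Siglec-XII in red. Genes in bold are among the 10 absorption genes, and in each family a bold gene is the highest.

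Siglec-XII and control colons were compared over the 13164 genes with at least 1 TPM in at least 4 samples, 9 of which are absorption genes. None of the 9 passed an adjusted p of 0.05 in limma, against 5 of all tested genes (0.038%). None passed an unadjusted P of 0.05, where 157 of all tested genes were higher (1.19%) and 1010 were lower (7.67%) in Siglec-XII colons. None had groups that did not overlap, where 138 genes had every Siglec-XII sample above every control (1.05%) and 535 had every one below (4.06%). A count of 0 among 9 genes is near these background shares. Of the 9 differences 3 were above 0 and 6 below, with a median of -0.02 on the log2 scale, beside a median of -0.15 over all tested genes, and 7 of the 9 lay above that median.

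The intervals limit how large a difference could have gone unseen. On the deposited scale, which adds 1 to each TPM, the 95% interval excluded a doubling for 9 of 9 genes. A halving was excluded for 8 of 9, all but Slc4a4. For a low gene such as Slc9a3 this limit is on TPM + 1 and not on TPM itself. A change of 1.5-fold in either direction was excluded for 6 of 9, and the exceptions were Slc9a3, Slc4a4 and Aqp8. These limits depended on the scale and on the samples used. After centering each sample on its median a doubling was excluded for 8 of 9, all but Slc9a3, a halving for 9 of 9, and a change of 1.5-fold for 1 of 9, Slc26a3. A doubling of Slc9a3 was also not excluded with quantile normalization, a pseudocount of 0.1, array weights or no filter. The same held with any single sample left out other than control 3 or Siglec-XII 2. Without Siglec-XII samples 3 and 4 together, a doubling was excluded for 7 of 9, all but Slc9a3 and Slc4a4. The within-group SD of the 9 had a median of 0.267 against 0.243 over all tested genes.

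The direction of the small differences depended on the scale. The median level of the tested genes in each sample was set against the mean of the 8 sample medians. It differed by -0.02 to 0.18 log2 units in controls. In Siglec-XII samples 1 to 4 it differed by 0.12, 0.06, -0.23 and -0.37. When each sample was centered on its median, 8 of the 9 genes were above 0 and 1 (Slc4a4) below, with a median of 0.19 and a smallest unadjusted P of 0.0601 for Slc9a2 (0.31, adjusted p = 0.469, limma). Over all genes the same centering turned the split of calls at unadjusted P from 157 higher and 1010 lower to 1137 higher and 285 lower, and quantile normalization gave 704 and 408.

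**Figure D3:**
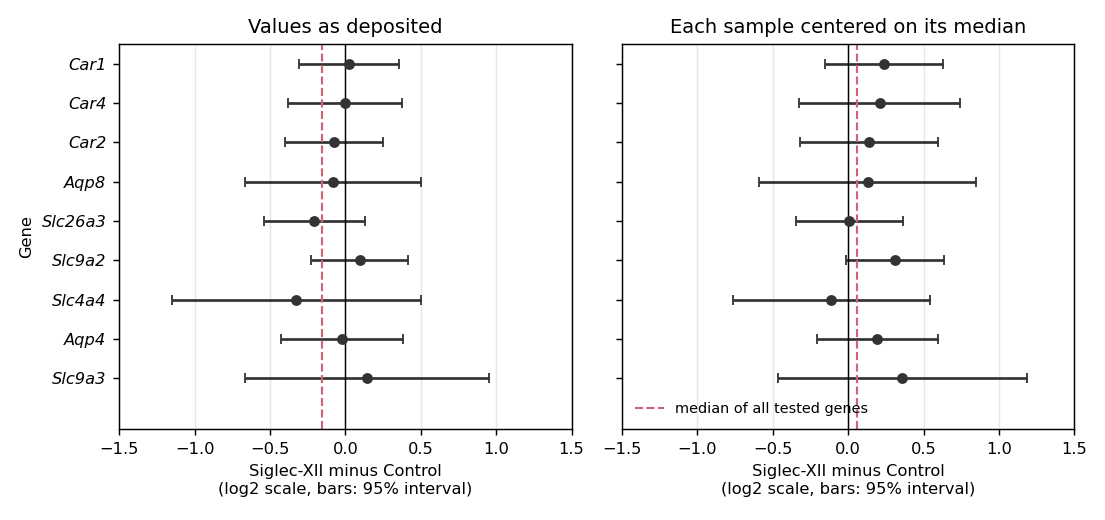
Siglec-XII minus control difference of the 9 tested genes on the log2 scale (points) with 95% intervals (bars), for the values as deposited on the left and after centering each sample on its median on the right. The dashed line is the median of all tested genes, -0.15 on the left and 0.06 on the right, and every interval includes 0.

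Siglec-XII samples 3 and 4 stood apart from the rest, at 36.2 and 50.2 on a first principal component that held 40.3% of the variance, with the other 6 samples between -29.0 and -4.80. In samples 3 and 4, absorption genes were not uniformly low. Slc4a4 had its 2 lowest values there, whereas Aqp8 and Car4 had their highest values in sample 4. Without both samples, no absorption gene passed an unadjusted P of 0.05.

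Variation within groups followed a pattern across genes, which was noticed after the values were seen. Control 3, Siglec-XII 1 and Siglec-XII 3 held the 3 lowest values of Slc26a3, of Car4 and of Aqp8. Control 3 and Siglec-XII 3 were also the lowest for Slc9a3, yet Slc4a4 was highest in control 3. Siglec-XII 2 was the highest sample for Slc26a3, Slc9a2 and Car1. The sum of 10 epithelial markers was 19027 TPM in control 3, the highest of all samples, 18663 TPM in Siglec-XII 1 and 16743 TPM in Siglec-XII 3, beside 14264 to 18625 TPM in the other 5. Single markers did not all follow this sum. Cdx2, named after its values were seen, was lowest in control 3 (4.16 TPM) and Siglec-XII 3 (6.26 TPM). In Siglec-XII 1 it had 7.81 TPM, above the 6.82 TPM of Siglec-XII 2. None of the other epithelial markers was lowest in control 3, and Krt8, Krt19 and Vil1 were highest there. The part of epithelial content in the pattern was not tested.

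**Figure D4:**
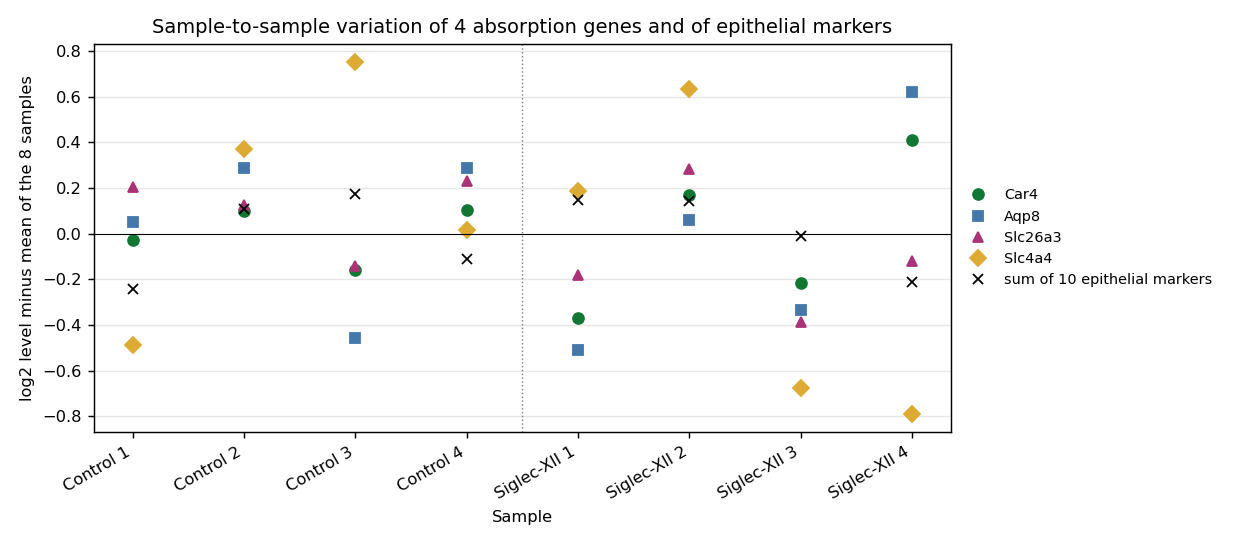
log2 level of Car4, Aqp8, Slc26a3 and Slc4a4 and of the summed epithelial markers in each of the 8 samples, minus its mean over the samples (y axis, log2 units), with controls left and Siglec-XII samples right of the dotted line. Car4, Aqp8 and Slc26a3 lie below 0 in control 3, Siglec-XII 1 and Siglec-XII 3, where the epithelial markers are at or above about 0.

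The mean profile of the 10 absorption genes over the 8 samples was compared with those of 13155 tested genes outside the set. It includes the untested Pdzk1, whose level is uncertain. Closest to it were Cdc42ep3, Ptp4a1 and Mcoln1, by the smallest root mean square difference of mean-centered log2 values. That difference was 0.0577 for Cdc42ep3, 0.0654 for Ptp4a1 and 0.0660 for Mcoln1. Cdc42ep3, an effector of the small GTPase Cdc42, ranged from 7.02 TPM in Siglec-XII 3 to 10.3 TPM in Siglec-XII 2. The mean profile of the absorption genes was lowest and highest in the same samples, which follows from picking genes by closeness to it.

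Ratios of 2 genes within a sample do not move with the scale of the sample, and 5 were compared by exact two-sided permutation over the 70 labelings of 4 against 4 samples, which cannot give a p below 0.0286. None differed between groups beyond the spread, with an adjusted p of 0.914 for each over the 5 pairs. The ratio of the chloride to the sodium exchanger, Slc26a3 to Slc9a3, was 88.0, 118, 243 and 63.8 in controls and 88.9, 83.2, 96.0 and 69.6 in Siglec-XII samples. Control 3 was high, where Slc9a3 was lowest, and the log2 difference was -0.43 ± 0.423 (exact p = 0.457), which became -0.055 without control 3 and -0.70 without control 4. The ratio of Slc9a3 to Slc9a2 was between 0.0320 and 0.125 in controls and between 0.0675 and 0.0920 in Siglec-XII samples, a log2 difference of 0.12 ± 0.481 (exact p = 0.886).

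Between carbonic anhydrases, the Car1 to Car2 ratio was 1.27, 2.59, 2.62 and 2.60 in controls and 2.08, 2.54, 2.64 and 2.13 in Siglec-XII samples. Control 1 fell far below the rest, with the lowest Car1 and the highest Car2, and the log2 difference between groups was 0.10 ± 0.273 (exact p = 0.914). Both enzymes are also made by red blood cells, whose 6 markers summed to 357 TPM in control 1 and 8.80 to 237 TPM in the other samples, and the part of these cells in the ratio was not tested. The ratio of membrane-bound Car4 to cytosolic Car2 ran from 0.824 to 1.44 in controls and from 0.919 to 1.49 in Siglec-XII samples (log2 difference 0.07 ± 0.223, exact p = 0.714). The Aqp8 to Aqp4 ratio ran from 32.5 to 52.9 in controls and from 20.9 to 65.6 in Siglec-XII samples (log2 difference -0.06 ± 0.406, exact p = 0.886).

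**Figure D5:**
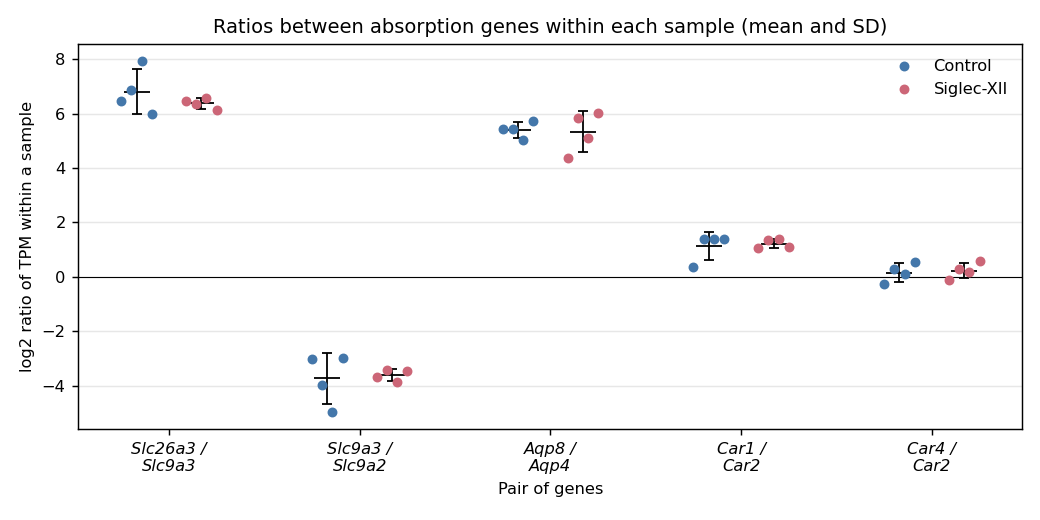
log2 of 5 TPM ratios between absorption genes within each sample, 1 point per sample, with black marks for the mean and SD of 4 control (blue) and 4 Siglec-XII (red) samples. The groups overlap for every ratio, and control 1 lies apart for Car1 to Car2.

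The other genes of the pathway, 78 in 6 lists, gave 49 tested genes with a median log2 difference of -0.14, near the -0.15 of all genes. None passed an adjusted p of 0.05 (smallest 0.515, limma). At an unadjusted P of 0.05 Scnn1b was higher and Slc9a9, Car12 and Kcnq1 were lower in Siglec-XII colons, 1 and 3 of 49, beside the background shares of 1.19% and 7.67%. Under median centering the split was 4 higher and 2 lower, and under quantile normalization 4 and 3. Scnn1b, Slc9a9 and Car12 were among them both times. Over all 13164 tested genes the split was 1137 higher and 285 lower under median centering, 10.8% called in either direction. Under quantile normalization it was 704 and 408, or 8.45%.

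Of 21 other acid-base exchangers 8 were tested, with a median difference of -0.08 and 1 lower at unadjusted P. Slc9a9, an endosomal sodium-hydrogen exchanger, had 2.29, 2.20, 1.63 and 2.27 TPM in controls and 1.32, 1.19, 0.679 and 0.857 TPM in Siglec-XII samples. All Siglec-XII values were below all control values, with a log2 difference of -0.63 ± 0.152 (unadjusted P of 0.0026, adjusted p = 0.515, limma). The abundant members were Slc26a2, at 184 ± 52.1 TPM in controls and 190 ± 53.3 TPM in Siglec-XII samples (SD, n = 4), and the basolateral anion exchanger Slc4a2, at 43.9 ± 5.53 and 37.0 ± 9.03 TPM.

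Of 13 other carbonic anhydrases 5 were tested, with a median of -0.21 and 1 lower at unadjusted P. Car12, a membrane-bound enzyme, had 5.91, 8.53, 2.53 and 5.58 TPM in controls and 2.89, 3.07, 1.53 and 2.19 TPM in Siglec-XII samples. Control 3 lay among the Siglec-XII values, and the log2 difference was -0.90 ± 0.296 (unadjusted P of 0.0143, adjusted p = 0.515, limma). Without Siglec-XII samples 3 and 4 it was -0.65, with an unadjusted limma P of 0.121. Car9 and Car13, the next most abundant, had adjusted p of 0.515 and 0.534.

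Of 10 other aquaporins 4 were tested, none passed at unadjusted P, and the median was -0.43. Aqp3, a basolateral channel for water and glycerol, had 120, 15.9, 9.97 and 54.6 TPM in controls and 12.6, 25.1, 7.95 and 9.04 TPM in Siglec-XII samples. The high values were those of controls 1 and 4, and the other 2 controls lay within the Siglec-XII range (log2 difference -1.32 ± 0.711, unadjusted P of 0.0963, adjusted p = 0.515, limma). Aqp1, the channel of endothelium and red cells, had 19.7 ± 2.58 TPM in controls and 17.5 ± 2.34 TPM in Siglec-XII samples (adjusted p = 0.582).

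Of 12 scaffolds and regulators of the exchangers 11 were tested, with none past unadjusted P and a median of -0.18. Slc9a3r2, a PDZ scaffold of Slc9a3, had 2.95, 2.56, 3.36 and 3.12 TPM in controls and 2.48, 2.36, 2.47 and 2.02 TPM in Siglec-XII samples. The groups did not overlap, but the log2 difference of -0.26 ± 0.125 had an unadjusted P of 0.0663 and an adjusted p of 0.515 (limma), and moved to -0.05 after median centering. Ezr, which ties membrane proteins to actin, and Pdzk1ip1, a small partner of Pdzk1, were abundant and had adjusted p of 0.733 and 0.872 (limma). Pdzk1ip1 stood at 379 ± 71.3 TPM in controls and 363 ± 36.9 TPM in Siglec-XII samples.

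All 16 genes of the sodium pump and other ion routes were tested, with a median of -0.13. Scnn1b, the beta subunit of the epithelial sodium channel, which takes up sodium with net charge, had 8.32, 7.38, 8.97 and 6.69 TPM in controls and 9.87, 12.5, 10.8 and 10.97 TPM in Siglec-XII samples. Each Siglec-XII value exceeded each control value, with a log2 difference of 0.45 ± 0.130 (unadjusted P of 0.0074, adjusted p = 0.515, limma). Kcnq1, a basolateral potassium channel named here after its value was seen, differed by -0.38 ± 0.166 (unadjusted P of 0.0496, adjusted p = 0.515, limma) and by -0.11 without Siglec-XII samples 3 and 4. Atp1b1, the beta subunit of the pump, had 953 ± 67.2 TPM in controls and 903 ± 170 TPM in Siglec-XII samples (SD, n = 4), with its lowest values in Siglec-XII samples 3 and 4, at 756 and 757 TPM, and an adjusted p of 0.739 (limma).

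Of 6 genes for uptake of short-chain fatty acids 5 were tested, with none past unadjusted P and a median of -0.06. The monocarboxylate transporter Slc16a1 had 134 ± 37.1 TPM in controls and 143 ± 30.7 TPM in Siglec-XII samples, its chaperone Bsg had 874 ± 36.7 and 840 ± 57.8 TPM, and the sodium-coupled Slc5a8 had 108 ± 22.0 and 95.7 ± 19.5 TPM. The adjusted p was 0.680 for Slc5a8, 0.729 for Bsg and 0.819 for Slc16a1 (limma).

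Markers placed these samples as distal colon, with epithelial genes at 14264 to 19027 TPM in controls and 14558 to 18663 TPM in Siglec-XII samples, surface colonocyte genes at 16476 to 21497 and 18708 to 21219 TPM, and genes of hindgut position at 531 to 658 and 495 to 712 TPM. Most of the surface colonocyte sum was Lypd8, at 14191 to 19106 TPM in controls and 16859 to 18598 TPM in Siglec-XII samples. Other cells were also sampled. Smooth muscle markers summed to 631 to 1016 TPM in controls and 307 to 658 TPM in Siglec-XII samples, with 4 of 8 markers lower at unadjusted P (Des, Cnn1, Myh11 and Synpo2, named after their values were seen), beside the background of 7.67%, and a median of -0.66. Of the endothelial markers Pecam1 was the 1 tested. Of the adipocyte markers 4 were tested, 3 below 0 and 1 above, with a median of -0.31. Pecam1 (-0.59, unadjusted P of 0.00097) and Lipe (-0.60, unadjusted P of 0.0104) were lower in Siglec-XII colons, each with an adjusted p of 0.515 (limma). Neither had overlap between groups, beside 4.06% of all tested genes with every Siglec-XII sample below every control. Lipe was the 1 adipocyte marker of which this held. Endothelial markers summed to 2.18 to 3.52 and 1.31 to 1.57 TPM, enteric glia markers to 1.96 to 2.92 and 1.41 to 2.09 TPM, adipocyte markers to 8.88 to 35.2 and 8.05 to 17.6 TPM, leukocyte markers to 9.92 to 37.9 and 9.41 to 24.2 TPM, and red blood cell markers to 8.80 to 357 and 45.4 to 237 TPM. In no list was a marker at 0 in all samples. The part of these cells in the pathway differences was not tested, and in bulk tissue fewer cells of a type cannot be told apart from less RNA per cell.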

How the data were processed

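Distal colon RNA of 4 control and 4 Siglec-XII samples was analyzed. The authors deposited log2(TPM + 1) for 52143 genes, made with kallisto 0.45.0 on GRCm38 per the submitters' processing notes, with no further scaling between samples. The Methods instead name another kallisto version and a human reference, but the identifiers are mouse, and 98.3% of them are in GENCODE M21 (GRCm38), from which positions were taken. TPM keeps no depth, so the depth is unknown and no counting interval is given. The labels list 4 samples per group, whereas the design text speaks of 3 mice per condition and the Methods of 3 technical libraries per sample. Each sample was counted once, and p-values measure only the spread between these samples, which may in part be technical.

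Genes that reached a TPM of 1 in 4 or more samples were compared in R 4.3.3 by limma 3.58.1 (functions lmFit and eBayes, the latter with a trend, and Benjamini-Hochberg over all genes tested, two-sided), in place of the count test of the Methods, since no counts were used here. The scale adds 1 to each TPM and so understates changes of low genes. The fit was tested on simulated data. Ratios were compared by exact permutation with Python 3.11.15 and scipy 1.17.1, and figures were drawn with matplotlib 3.10.9. Sequences are from RefSeq.

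The members and lists were chosen with earlier results of these data known. Text names all 10 members, and from each pathway list the 2 genes highest in controls and the one with the smallest P, and the 3 genes most like the members. Kcnq1 and some marker genes fall outside this rule. A pathway gene that this rule would name is not reported here. Alternatives were median centering, quantile normalization, a pseudocount of 0.1, no filter or a TPM of at least 5, the replicate number as a block, array weights, and samples left out.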

Additional observations from a re-analysis of the deposited data

Results flagged for a closer look

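In a screen of 62 groups of 4 values (members, ratios and named pathway genes, per group), 4 had 1 sample far from the other 3 by Dixon's criterion, beside 3.1 expected by chance at 1 in 20. The Car1 to Car2 log2 ratio of control 1 was separated from the next control by 0.985 of the range of the controls. Among the controls, Slc16a1 and Slc5a8 were also lowest in control 1, with gaps of 0.868 and 0.867 of the range. Slc9a9 was lowest in control 3 among the controls, with a gap of 0.874, and every Siglec-XII sample was lower still.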

How the results depend on the processing

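No absorption gene and no pathway gene reached an adjusted p of 0.05 under any alternative that was run. Over 117 fits of 9 absorption genes under settings that can move a difference (another scale, pseudocount or weighting, or samples left out), 91 kept its direction and 26 did not, and the smallest adjusted p was 0.400 (limma, Slc26a3 without Siglec-XII sample 2). The count of absorption genes at an unadjusted P of 0.05 was 1 (Pdzk1) with no filter and ranged from 0 to 1 over the single samples left out, the 1 being Slc26a3 without Siglec-XII 2. Differences that turned positive under median centering were 0.0079 for Slc26a3, 0.14 for Car2, 0.21 for Car4, 0.13 for Aqp8 and 0.19 for Aqp4. Quantile normalization gave 0.051 for Car2, 0.076 for Car4 and 0.18 for Aqp4, array weights gave 0.081 for Slc26a3, 0.11 for Car2, 0.058 for Car4 and 0.20 for Slc4a4, and leaving out Siglec-XII 3 and 4 together gave 0.019 for Aqp4 and 0.25 for Slc4a4. With single samples left out, the log2 difference ranged from -0.33 to -0.11 for Slc26a3, -0.20 to 0.40 for Slc9a3, -0.099 to 0.10 for Car1, -0.17 to 0.058 for Car2, -0.14 to 0.12 for Car4, -0.30 to 0.073 for Aqp8 and -0.18 to 0.11 for Aqp4. The log2 ratio differences ranged from -0.70 to -0.055 for Slc26a3 to Slc9a3, -0.29 to 0.37 for Slc9a3 to Slc9a2, -0.29 to 0.26 for Aqp8 to Aqp4, -0.16 to 0.19 for Car1 to Car2 and -0.074 to 0.20 for Car4 to Car2, which was -0.071 without Siglec-XII 3 and 4.

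The 4 pathway genes at unadjusted P became 7 with quantile normalization, 2 with a TPM minimum of 5, 8 with array weights, and 3 to 7 with single samples left out, 7 without Siglec-XII 1. The 5 genes at adjusted p over all genes became 3 with no filter, 3 with a TPM minimum of 5, 18 with array weights, 2 without Siglec-XII 3 and 4, and 2 to 6 with single samples left out (3 without Siglec-XII 1, 2 without Siglec-XII 2 and 3 without Siglec-XII 4). The 1167 genes at unadjusted P became 2043 with no filter, 699 with a TPM minimum of 5, 1851 with array weights, 362 without Siglec-XII 3 and 4, and 483 to 2365 with single samples left out (2365 without Siglec-XII 1, 483 without Siglec-XII 3, 563 without Siglec-XII 4 and 664 without control 4). At the minimum of 5, 9438 genes were tested in place of 13164, and 7.41% of them were called at unadjusted P, beside 8.87%. The cause of these changes in the counts was not tested for any setting. The deviations of same-numbered samples from their group means had correlations of -0.165, -0.204, 0.103 and -0.0025. No shared deviation was seen, but with 4 samples per group this cannot decide whether the numbers mark a pairing. With the number as a replicate block, 4 genes passed at adjusted p and 945 at unadjusted P, with 0 absorption genes among them, and a paired permutation of a ratio cannot give a p below 0.125. With Siglec-XII 3 and 4 left out, 15 labelings remain for a ratio. The depth behind each value is unknown.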
